A study of Mus musculus with 43 samples.

Results

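The genes described here make peptide messengers out of their precursors and pack them into dense-core vesicles, the storage granules of neurons that release peptides such as neurotensin. They are 10 genes of the 35825 in the deposited tables, taken by name and read in all 43 cells: the convertases *Pcsk1* and *Pcsk2*, their binding proteins *Pcsk1n* and *Scg5*, the trimming and amidating enzymes *Cpe* and *Pam*, and the granins *Chga*, *Chgb*, *Scg2* and *Scg3*. Of the 10 genes, 9 passed the expression filter that leaves 10802 genes of the series (a mean CPM above 4, with 5 or more cells over 15 CPM, where CPM is the count per 1000000 counts of a cell), and *Pcsk1* did not.

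A peptide precursor enters the secretory pathway with a signal sequence, is sorted into the acidic vesicle together with granins, and is cut there after pairs of basic residues by prohormone convertases. Carboxypeptidase E then removes the exposed basic residues, and peptidylglycine alpha-amidating monooxygenase amidates peptides that end in glycine. Neurotensin and its sister peptide neuromedin N are cut from 1 precursor, the product of *Nts*, and neurotensin is a transmitter of GABAergic neurons of the nucleus accumbens that project to the midbrain.

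NAcLat→VTA cells are neurons of the lateral nucleus accumbens that project to the ventral tegmental area. By the study's methods they were labelled by beads injected into the VTA, recorded in brain slices of C57BL/6J mice and aspirated through the patch pipette, so a library holds the cytosol that 1 pipette took up. The comparison is between 23 cells of mice on regular chow (REG, labelled NORM) and 20 cells of mice on a high-fat diet (HFD), and no transgene, deletion or drug separates the groups in the labels. Batch 1 by the labels held 13 REG and 5 HFD cells, and batch 2 held 10 REG and 15 HFD cells. No label names the mouse of a cell, so each diet was treated as 1 sample and all differences are given as values without a test.

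The total count of a cell lay between 176961 and 16919555, with a median of 1427698 in REG and 1416982 in HFD cells, and *Lars2* and *Gm19220* together took up to 85.8% of it (HFD replicate 8). All 7 medium spiny neuron markers were detected in 42 or 43 of the 43 cells, and their summed TPM (transcripts per 1000000 transcripts, a level per transcript length) ranged from 1511 to 4895 in REG and from 235 to 7290 in HFD cells. The 6 astrocyte markers summed to at most 136 TPM in any cell, with *Aqp4*, *Aldh1l1* and *Gfap* at a median of 0. The 7 microglia markers, which all gave counts, summed to between 0.143 and 2214 TPM in REG cells and to between 1.82 and 2216 TPM in HFD cells, *P2ry12* and *Tmem119* having a median of 0. The 5 oligodendrocyte markers summed to between 0.444 and 828 TPM in REG and between 3.24 and 1460 TPM in HFD cells, with a count of *Mog* in 1 cell. Spearman's rho over the 43 cells between a member's TPM and these sums lay between −0.11 and 0.23 for astrocyte, between −0.10 and 0.14 for microglia and between 0.01 and 0.28 for oligodendrocyte markers, and the part of such RNA in the levels below was not tested.

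The sites on which the convertases act are shown first, as they stand in the *Nts* transcript. *Nts* lies on the minus strand of chromosome 10 (GRCm38, 102481756 to 102490486) in 4 exons, and its 169 codons hold 4 Lys-Arg codon pairs. The stretch below, codons 136 to 169 at chr10:102482334-102482435 in the coding part of exon 4, has 3 of these pairs in capitals. The codons between the first and the second capital pair encode neuromedin N, and those between the second and the third encode neurotensin.
Nts codons 136 to 169: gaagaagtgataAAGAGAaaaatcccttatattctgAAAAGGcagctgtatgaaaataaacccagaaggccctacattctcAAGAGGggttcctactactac
The stretch also carries an arginine pair inside neurotensin (agaagg, in lower case), and over the whole coding sequence *Nts* has 7 adjacent codon pairs for basic residues, 4.14 per 100 codons against a median of 1.39 over 20837 genes of at least 100 codons. Among the members, *Chgb* had 23 such pairs, or 3.40 per 100 codons, and *Scg5* 7 pairs, or 3.30 per 100 codons. Granins are known as acidic proteins, so a high content of acidic codons (Asp or Glu) comes with the choice of these genes. Such codons made up 23.2% of codons in *Chgb*, 21.8% in *Chga*, 19.7% in *Scg3* and 19.1% in *Scg2*. The median over the 20837 genes was 11.2%. The 4 granins lay between percentiles 97.1 and 99.4 of these genes, and *Pcsk1*, *Pcsk2*, *Pam* and *Pcsk1n* between percentiles 66.8 and 73.2, with *Cpe* at 81.1 and *Scg5* at 84.8 in between.

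Promoters were read because several genes of the regulated secretory pathway are textbook targets of the cAMP response element, the 8-letter palindrome TGACGTCA. RefSeq promoter windows (GRCm38.p6, 250 bases before to 50 after the start) were matched for 9 of the 10 members by 10 entries, *Pam* having 2, and the palindrome stood in 3 of them, those of *Scg2*, *Chgb* and *Pcsk1*. Over 32851 promoter windows of 300 bases, 1.79% held it. The shorter letters TGACG, on either strand and including those inside the palindrome, stood in 7 of the 10 member windows, in that of *Nts*, and in 20.8% of all windows. The 3 matches are shown on the strand of the gene, with the palindrome in capitals, to set beside the levels of the 3 genes further on.
Scg2 (chr1:79440076-79440105, minus strand): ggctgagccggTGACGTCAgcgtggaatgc
Chgb (chr2:132781559-132781588, plus strand): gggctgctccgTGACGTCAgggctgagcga
Pcsk1 (chr13:75089768-75089797, plus strand): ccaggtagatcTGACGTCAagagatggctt
The palindrome began 68 bases before the RefSeq start in *Scg2*, 72 in *Chgb* and 78 in *Pcsk1*. In GENCODE M21 the first 2 of these windows overlap an annotated exon of their gene, and the third does not.

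*Pcsk2* encodes the convertase that works late in the mature vesicle, and it was the more abundant convertase in these cells. It was detected in all 43 cells (exact 95% binomial interval from 91.8% to 100%, which takes cells as independent draws although cells can share a mouse), at 1.11 TPM in the lowest, 18.3 TPM in the median and 88.9 TPM in the highest REG cell, and at 0.956, 16.3 and 154 TPM in HFD cells. The highest value, HFD replicate 20 of batch 2, rested on 3568 counts, and the lowest of each diet on 5 counts, in HFD replicate 13 and REG replicate 16. *Pcsk1*, the convertase that acts earlier on the way to the mature vesicle, was detected in 15 of 43 cells (34.9%, interval from 21.01% to 50.9%). REG cells with *Pcsk1* numbered 10 of 23 and HFD cells 5 of 20, and the highest level was 14.9 TPM in REG replicate 18 and 13.9 TPM in HFD replicate 14. Its 400 counts were unevenly spread, since 3 cells (REG replicates 18 and 23 and HFD replicate 14) held 88, 120 and 86 of them and 5 cells held 1 count each. A count of 0 still allows up to 3 counts, which amount to between 0.177 and 16.95 CPM in these cells (median 2.10 CPM), so a low *Pcsk1* level was not detectable in the shallower cells.

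Within a cell, *Pcsk2* TPM exceeded *Pcsk1* TPM in 40 of 43 cells, in 21 of 23 REG and in 19 of 20 HFD cells. The difference in log2(TPM + 1) had a median of 3.89, with quartiles of 1.88 and 4.98. The order went the other way in 3 cells. All 43 cells held counts of at least 1 convertase, and 15 held both.

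**Figure D1:**
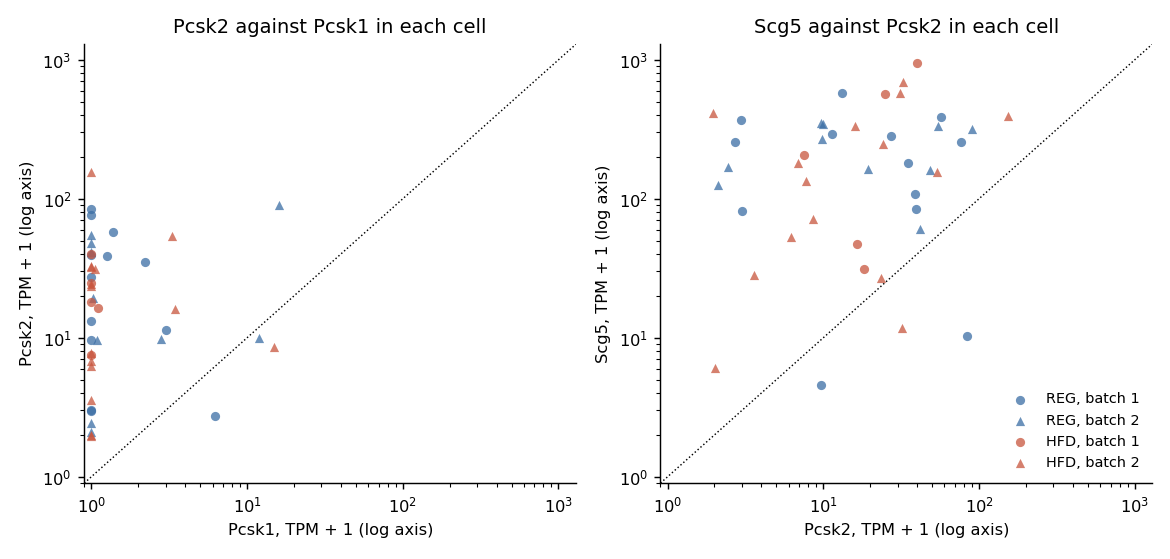
Each point is 1 cell, coloured by diet and shaped by batch, with TPM + 1 on log axes and a dotted line of equal level. Left, *Pcsk2* lies above *Pcsk1* in 40 of 43 cells, and most cells sit at the left edge with no *Pcsk1* count. Right, *Scg5* lies above *Pcsk2* in 40 of 43 cells, with cells spread from 3.56 to 949 TPM of *Scg5*.

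*Scg5* encodes 7B2, the chaperone that *Pcsk2* needs for its activation and whose C-terminal peptide inhibits it. It was detected in all 43 cells, at 3.56, 255 and 574 TPM in the lowest, median and highest REG cell and at 5.04, 167 and 949 TPM in HFD cells. *Scg5* exceeded *Pcsk2* in 40 of 43 cells, with a median difference of 3.10 in log2(TPM + 1) and quartiles of 1.56 and 4.74. *Pcsk1n*, which encodes proSAAS, a granin-like binding protein and inhibitor of the *Pcsk1* convertase, was above *Pcsk1* in all 43 cells, by a median of 6.12 in log2(TPM + 1). It ranged from 14.3 to 221 TPM (median 111) in REG and from 10.96 to 304 TPM (median 88.4) in HFD cells. Counts of *Pcsk1n* were thus also present in the 28 cells without a *Pcsk1* count, and its coefficient of variation over cells, 0.630, lay at percentile 0.611 of the 10802 expressed genes, whose median was 1.596. *Eras*, whose exons overlap *Pcsk1n* on the other strand, had 414 counts in 2 cells, and reads of the 2 genes may be split between them.

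*Cpe* encodes carboxypeptidase E and had the highest median level of the 10 genes, 191 TPM. It was detected in every cell, from 23.2 TPM through a median of 193 TPM to 1310 TPM in REG cells and from 6.13 through 175 to 935 TPM in HFD cells. The lowest value, in HFD replicate 7, rested on 3 counts, and the highest, in REG replicate 16, on 2429 counts. *Pam*, the amidating enzyme, was likewise detected in every cell, at 5.81, 42.9 and 352 TPM in the lowest, median and highest REG cell and 2.35, 49.7 and 230 TPM in HFD cells. It acts on peptides that end in glycine, and in the stretch printed above the codon before the pair that ends neurotensin is ctc, for leucine. The ratio of count to TPM follows the transcript length that the authors' quantification assigned in each cell, up to a factor particular to the cell. Lengths in bases are therefore approximate, and some pass the longest annotated transcript (up to 5500 bases against 5040 for *Pcsk1*). For *Pam*, with 15 annotated transcripts of 415 to 4102 bases, this length ran from 755 to 4176 bases over 41 cells with at least 10 counts, so that equal counts could stand for several-fold different TPM. It stayed between 2133 and 2237 bases for *Pcsk1n*, which has 1 transcript, and dropped to 860 bases for *Cpe*, 757 for *Chga* and 581 for *Scg3* in the lowest cell.

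The granins bind calcium and aggregate in the vesicle, and they are precursors of peptides themselves. *Scg2*, secretogranin II, was detected in all 43 cells, at 2.81, 156 and 765 TPM in the lowest, median and highest REG cell and at 6.88, 202 and 859 TPM in HFD cells. *Chga*, chromogranin A, was detected in all cells too, at 0.286, 63.5 and 207 TPM in REG and 2.96, 106 and 769 TPM in HFD cells, where the highest, HFD replicate 10, stood well apart from the next at 280 TPM. *Chgb*, chromogranin B, was detected in 42 cells, at 1.58, 50.7 and 474 TPM in REG and 0, 62.7 and 275 TPM in HFD cells. *Scg3*, secretogranin III, which ties granins to the vesicle membrane, was the granin most often missing, with counts in 33 of 43 cells (76.7%, interval from 61.4% to 88.2%). It ran from 0 through a median of 10.6 TPM to 318 TPM in REG and from 0 through 27.7 to 183 TPM in HFD cells, and REG replicate 14 alone gave 7477 of its 10960 counts. The REG and HFD ranges overlapped for each of the 4 granins, and so did their quartile ranges.

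The palindrome-bearing genes did not share a level. *Scg2* had a median of 185 TPM and *Chgb* of 61.5 TPM over the 43 cells, and *Pcsk1*, with the same 8 letters at a similar distance from its start, had a median of 0.

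Ordered by median TPM over all cells, the members ran from *Cpe* (191) and *Scg2* (185) through *Scg5* (179), *Pcsk1n* (102), *Chga* (81.7), *Chgb* (61.5), *Pam* (48.0) and *Scg3* (22.1) to *Pcsk2* (17.2) and *Pcsk1* (0). In 8 of the 9 neighbouring pairs the quartile ranges overlapped, and only *Pcsk2* and *Pcsk1* were apart. *Cpe* exceeded *Scg2* in 20 cells and *Scg2* exceeded *Scg5* in 18, so the first 3 genes had no fixed order, and each of them ranked first in at least 1 diet or batch. *Cpe*, *Scg2* and *Scg5* lay between percentiles 95.7 and 96.0 of median TPM over the 10802 expressed genes, and *Pcsk2* at percentile 69.7. The 10 genes summed to a median of 1070 TPM a cell, between 416 and 2301 TPM in REG and between 235 and 2766 TPM in HFD cells. The 4 precursors *Nts*, *Tac1*, *Pdyn* and *Penk* summed to a median of 3943 TPM in REG and 2590 TPM in HFD cells.

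**Figure D2:**
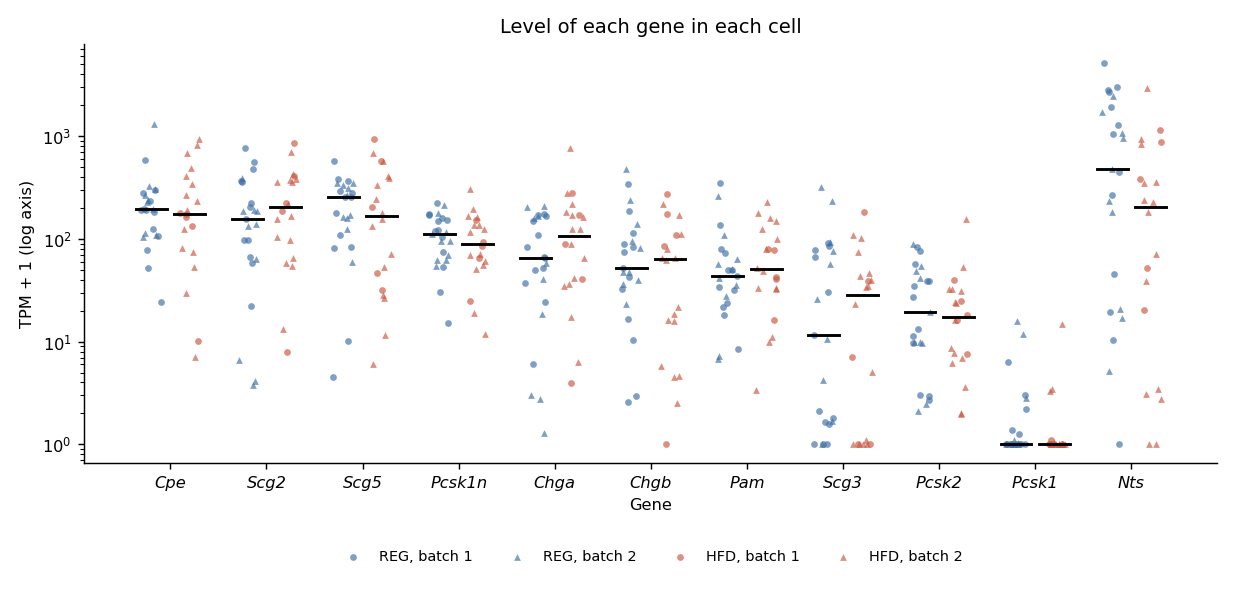
Each point is the level of 1 gene in 1 cell, as TPM + 1 on a log axis, for REG (blue) and HFD (red) cells of batch 1 (circles) and batch 2 (triangles), with black bars at the median of each diet. Genes stand in order of their median over all cells, with *Nts* last, and the points of the 2 diets overlap in every gene.

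Most members were detected in each cell. A median of 9 of the 10 members had counts in a cell, all 10 in 13 cells, and no cell had fewer than 7. Over all cells and members, 391 of 430 combinations had a count (90.9%). Thinned to 150000 counts a cell, this came to 362 (84.2%), with 194 of 230 in REG and 168 of 200 in HFD cells (84.3% and 84.0%). After thinning, *Pcsk1n* was still detected in 43 cells, *Cpe* in 42, *Pcsk2* and *Pam* in 41, and *Pcsk1* in 8. Since *Pcsk2* and *Cpe* were in all cells, the 40 cells with *Nts* counts (22 REG and 18 HFD) held both, and 15 of them held *Pcsk1*. After thinning, 33 of 36 cells with *Nts* held both. Without thinning, combinations with a count ran from 54.3% for other processing enzymes to 98.4% for the vesicular proton pump over the 7 lists of pathway genes below. They came to 99.7% for the medium spiny neuron markers. The share over all expressed genes is not given here.

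**Figure D3:**
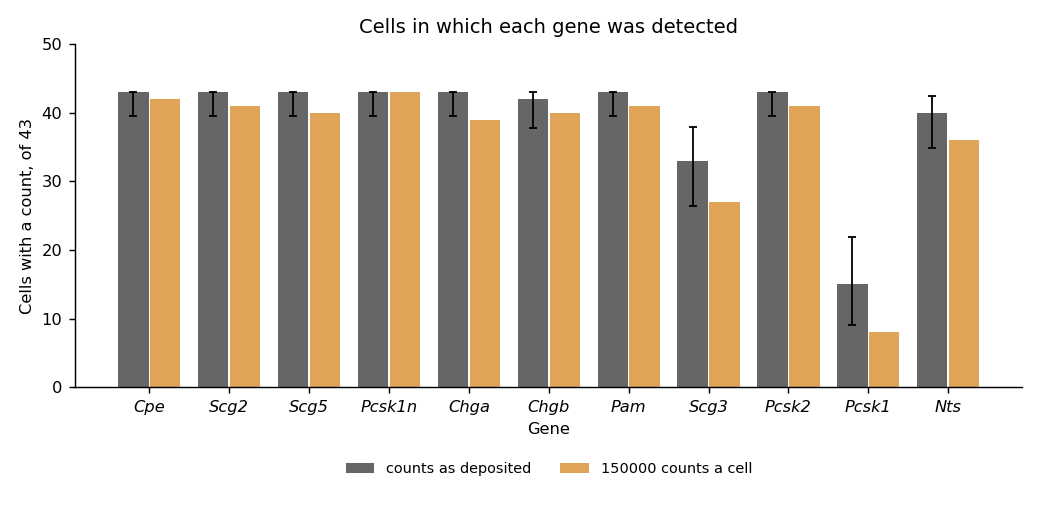
Bars give the number of the 43 cells with a count of each gene, from the counts as deposited (grey, with exact 95% binomial intervals) and after thinning to 150000 counts a cell (yellow). *Pcsk1* falls from 15 to 8 cells and *Scg3* from 33 to 27, and the other 8 members stay at 39 cells or more.

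The study's comparison asks what a high-fat diet does to the transcripts of these cells, and *Nts* is the precursor at its centre. Mean *Nts* was 764 CPM in REG cells and 269 CPM under HFD, a log2 ratio of −1.51. Over the alternatives tried here it ran from −1.68 in batch 1 to −0.83 in batch 2. With 1 cell left out it lay between −1.99 and −1.29. Over all cells the members stood closer to 0. In batch 2, however, *Scg3* (−1.32), *Pcsk1* (−1.28), *Chgb* (−1.22), *Chga* (1.12) and *Scg2* (0.96) stood further from 0 than *Nts*. In batch 1 *Pcsk1* did, with 1 HFD count. Single cells held much of these batch 2 sums. Of the REG CPM, replicate 14 held 44.3% for *Scg3*, replicate 16 40.2% for *Chgb* and replicate 18 55.0% for *Pcsk1*. Of the HFD CPM, replicate 10 held 28.4% for *Chga* and 45.2% for *Nts*, and replicate 19 22.1% for *Scg2*. No batch ratio was computed with a cell left out. With the call set at a log2 ratio of 1 in either direction, a fold of 2, 0 of the 10 members were past it over all cells. This count includes *Pcsk1*, which did not pass the expression filter. Of the 10802 expressed genes, 23.3% were past the fold (9.04% higher and 14.3% lower in HFD cells). The 9 expressed members ran from −0.48 to 0.72 with a median of 0.10, and all expressed genes had a median of −0.13 and quartiles of −0.65 and 0.40. Other scalings moved that centre, edgeR's TMM factors by 0.14 and DESeq2's size factors by 0.32. The expressed members' median less that of all genes was 0.23 as reported, 0.35 with TMM and 0.54 with size factors. It was 0.11 in batch 1, 0.13 in batch 2 and 0.10 as the mean of the within-batch ratios. The other alternatives gave between 0.08 with mean log2(CPM + 1) and 0.48 with summed counts. Higher genes made up 38.8% of those past the fold as reported, 51.8% with TMM and 65.2% with size factors. The expressed members lay at percentiles 69.7 to 96.0 of median TPM over the expressed genes. Their coefficients of variation lay at percentiles 0.611 to 19.3, except *Scg3* at 50.8. The part of this level and spread in the members' ratios was not tested.

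Among the convertases and their binding proteins, mean *Pcsk2* was 88.6 CPM in REG cells and 73.7 CPM under HFD, with a log2 ratio of −0.27 that was −0.62 in batch 1 and −0.16 in batch 2. Without HFD replicate 20 it was −0.69, and it turned to 0.82 in summed counts, to which that cell gave 3568 of 9730. *Pcsk1n* had means of 156 and 144 CPM (−0.12), with −0.63 in batch 1 and 0.14 in batch 2, and *Scg5* had means of 145 and 155 CPM (0.10), with 0.47 and −0.03. Both signs occurred for these 3 genes among the alternatives, so no direction can be given. *Pcsk1* gave 275 counts over the REG cells (exact 95% Poisson interval from 243 to 309) and 125 over the HFD cells (104 to 149), with mean CPM of 5.54 and 2.86. Its ratio of −0.95 rested on few cells, being −2.73 without HFD replicate 14 and −0.28 without REG replicate 18, and in batch 1 the HFD cells held 1 count in all.

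*Cpe* had means of 323 and 345 CPM, with a log2 ratio of 0.10, and lay below 0 within each batch (−0.60 and −0.03). Without REG replicate 16 the ratio was 0.42 and without HFD replicate 19 it was −0.14. *Pam* had means of 74.8 and 90.0 CPM (0.27), with −0.36 in batch 1 and 0.46 in batch 2, and it ranged from −0.68 to 0.60 over the alternatives.

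Of the granins, *Chga* and *Scg2* were higher on average in HFD cells under every alternative tried, and no direction can be given for *Chgb* and *Scg3*. The ratios of *Chga* and *Scg2* lay at percentiles 85.3 and 74.1 of the expressed genes. The alternatives mostly draw on the same cells, and the share of expressed genes keeping their sign in all of them is not given here. Of the other members only *Pcsk1* kept its sign, below 0 in all 10 of its alternatives. *Chga* had means of 92.6 and 153 CPM, with a log2 ratio of 0.72, and it was above 0 under all 11 alternatives, from 0.03 in batch 1 to 1.45 with DESeq2's size factors. Of the HFD cells, 13 of 20 lay above the REG median TPM, and without HFD replicate 10 the ratio was 0.41. *Scg2* was the other member above 0 in all 11 alternatives, with means of 301 and 390 CPM (0.38), 0.28 in batch 1 and 0.96 in batch 2, and 12 of 20 HFD cells above the REG median TPM. *Chgb* had means of 169 and 121 CPM (−0.48) and *Scg3* of 57.7 and 45.3 CPM (−0.35). For these genes the batches disagreed, *Chgb* having a log2 ratio of 0.63 in batch 1 and −1.22 in batch 2, and *Scg3* 1.28 and −1.32. The batch values of *Scg3* leaned on single cells. In batch 1, HFD replicate 3 held 79.2% of its summed CPM over the 5 HFD cells. In batch 2, REG replicate 14 held 44.3% over the 10 REG cells. Leaving out REG replicate 14 turned *Scg3* to 0.17 over all cells. The 2 diets' cells overlapped for all of these genes.

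Within batch 1, *Scg3*, with most of its HFD level in replicate 3, and the 1-count *Pcsk1* were past the fold, 2 of 10 members beside 42.1% of expressed genes. Within batch 2 *Pcsk1*, *Scg3*, *Chga* and *Chgb* were, 4 of 10 beside 34.6%. Neither count was repeated with a cell left out. *Pcsk1* is counted in both batches although it is not among the expressed genes. The sign differed between the batches for 5 of the 9 expressed members (*Pcsk1n*, *Pam*, *Scg3*, *Scg5* and *Chgb*), against 50.8% of expressed genes. Within the REG cells alone, the log2 ratio of batch 2 over batch 1 ran from −1.05 in *Scg2* to 1.97 in *Scg3* over the 9 expressed members, and it was near 0 in *Pcsk2* (−0.01), *Scg5* (−0.05) and *Pam* (−0.06). Within the HFD cells the same ratio ran from −1.20 in *Chgb* to 1.26 in *Cpe*. *Cpe* was higher in batch 2 in both diets (0.69 in REG) and *Scg2* lower in both (−0.37 in HFD), while *Scg3* at −0.63 in HFD and *Chgb* at 0.64 in REG had the opposite sign in the other diet. Of the 20 HFD cells 15 were in batch 2, and of the 23 REG cells 10. Summed over the 10 genes, mean TPM gave a log2 ratio of 0.14 over all cells, 0.21 in batch 1 and 0.08 in batch 2, where the sum of *Nts*, *Tac1*, *Pdyn* and *Penk* gave −0.57, −0.46 and 0.05.

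**Figure D4:**
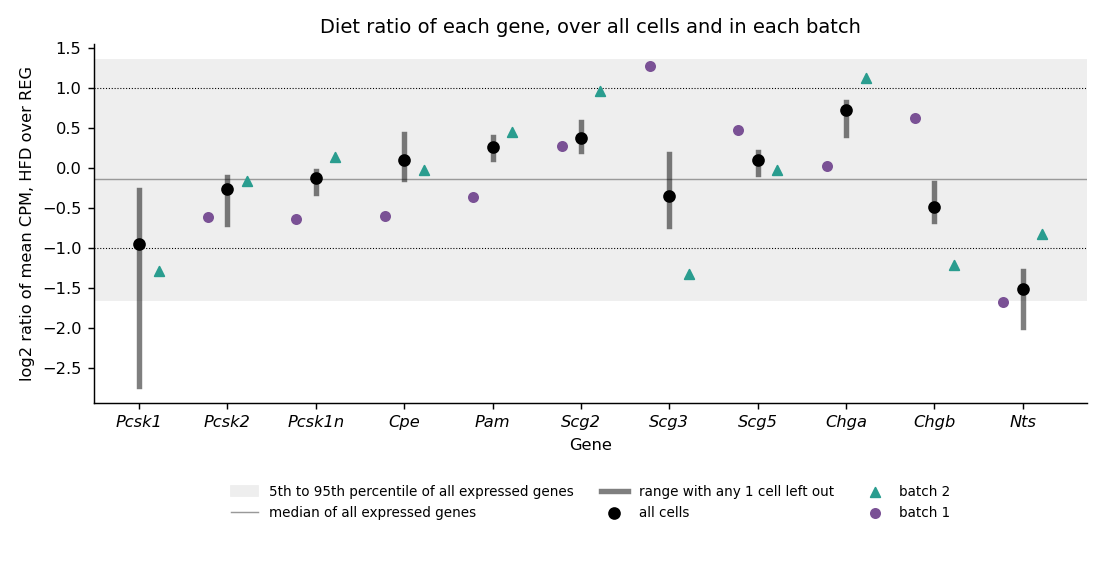
Black points give the log2 ratio of mean CPM in HFD over REG cells, dark bars the range with any 1 cell left out, and purple circles and green triangles the ratio in batch 1 and batch 2. The grey band spans the 5th to 95th percentile of 10802 expressed genes (−1.65 to 1.35), dotted lines mark 1 and −1, and *Pcsk1* in batch 1 is not drawn because its HFD cells held 1 count. The 10 members lie inside the dotted lines over all cells, and *Nts* lies below.

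Members varied from cell to cell largely apart from each other, with a median rho near that of pairs of expressed genes at large. Over 45 pairs, Spearman's rho of TPM had a median of 0.08 and ran from −0.34 to 0.44, and 2 pairs (4.44%) lay above 0.3. Pairs among 1081 expressed genes, every 10th of the table, had a median of 0.09 and lay above 0.3 in 10.2% of cases. These are descriptions over 43 cells that share depth, batch and mice. The pairs above 0.3 both held *Scg5*, with *Cpe* (0.44, and 0.47 centred within diet and batch) and with *Pcsk1n* (0.40 and 0.41). For *Cpe* the rho was 0.16 in REG and 0.64 in HFD cells and 0.17 in batch 1 and 0.62 in batch 2, and for *Pcsk1n* it lay between 0.35 and 0.42 in each of these. *Pcsk2* and *Scg5*, the enzyme and its chaperone, were not among them, and *Pcsk2* was most alike to *Pam* (0.25) among the members and least alike to *Pcsk1n* (−0.34). With *Nts*, the rho was 0.39 for *Scg3*, 0.37 for *Chga*, 0.30 for *Scg5* and 0.29 for *Chgb*, and −0.20 for *Pam*. The 95th percentile of all expressed genes' rho with *Nts* was 0.376, and 435 of them had a higher rho than *Scg3* did. The number of genes detected in a cell had a rho of 0.42 with *Pcsk1* and 0.37 with *Scg3*.

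**Figure D5:**
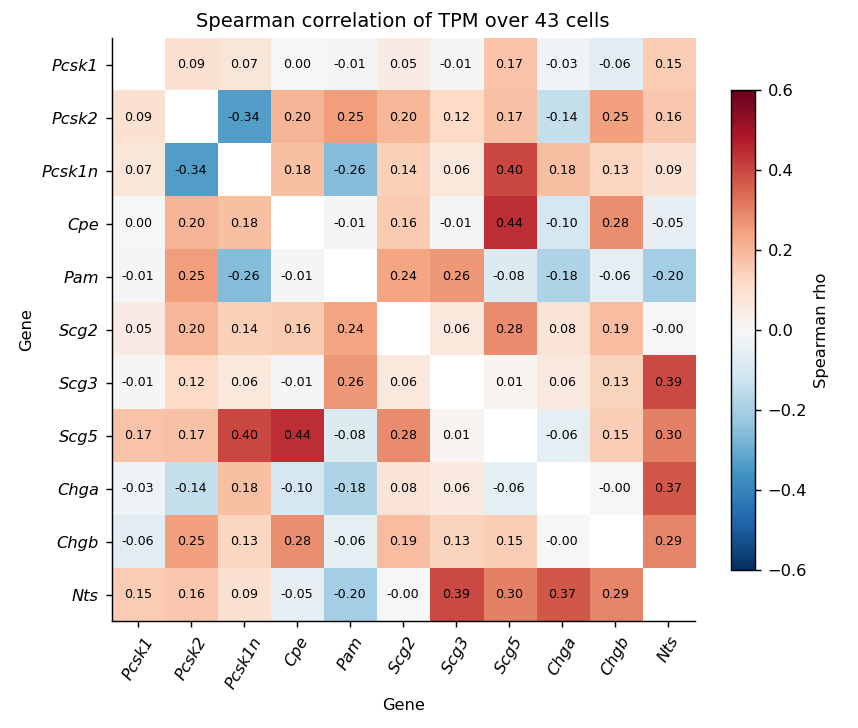
Colour and number give Spearman's rho of TPM over the 43 cells for each pair of the 10 members and *Nts*, from blue (negative) to red (positive). Most cells of the grid are pale, and the strongest entry is 0.44 for *Cpe* with *Scg5*.

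Of all expressed genes, the one most alike to *Cpe* was *Ppp3r1* (rho 0.75, calcineurin's regulatory subunit), to *Scg5* *Hprt* (0.69, purine salvage), to *Scg2* *Rheb* (0.62, an activator of mTORC1) and to *Pcsk1n* *Cox5a* (0.60, a subunit of cytochrome c oxidase). For *Pam* it was *Xpo1* (0.60, nuclear export), for *Chgb* *Zfp821* (0.59), for *Scg3* *Axin1* (0.68, a scaffold of Wnt signalling), for *Pcsk2* *Cdr2l* (0.65) and for *Pcsk1* *Tmem254b* (0.70). The fellow members most alike were *Scg5* for *Pcsk1*, *Pcsk1n*, *Cpe* and *Scg2*, *Cpe* for *Scg5* and *Chgb*, *Pam* for *Pcsk2* and *Scg3*, *Scg3* for *Pam* and *Pcsk1n* for *Chga*. Each top gene is the highest of the 10802, and with thinned counts *Cdr2l* had a rho of 0.22 with *Pcsk2*. The mean of the 10 standardised members was most alike to *Tmeff1* (0.73), *Ubl3* (0.73), *Dnaja1* (0.72), *Gpm6a* (0.71), *Nefl* (0.70), *Arid1b* (0.69), *Cdh2* (0.69) and *Zwint* (0.69).

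Other genes of the pathway were counted on 7 lists. Of their 64 expressed genes, 7 were higher and 9 lower past the fold in HFD cells, 25% beside the 23.3% of all expressed genes, with a median log2 ratio of −0.03. Of the 12 other processing enzymes 8 were expressed, 2 of them higher and 2 lower. *Ctsl*, which encodes cathepsin L, a protease that also processes peptide precursors, was detected in all 43 cells at a median of 41.4 TPM, with means of 138 CPM in REG and 58.9 CPM in HFD cells (−1.23, and −1.08 and −1.13 in the batches). It kept its sign in all 11 alternatives and was −0.42 at the least with 1 cell left out. *Qpct*, glutaminyl cyclase, which forms the pyroglutamate at the start of neurotensin, was detected in 17 cells with means of 12.1 and 33.1 CPM (1.45). *Mbtps1*, a convertase of membrane-bound factors, was second in level at 4.57 TPM, with a ratio of −0.52.

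The signal peptidase subunits *Spcs1* (473 TPM) and *Sec11c* (121 TPM) both had log2 ratios of −0.09, but *Sec11c* was −0.98 in batch 1 and 2.01 in batch 2, and *Spcs1* 0.11 and 0.24. Of the 5 subunits 1 was lower past the fold. *Sec11a*, the other catalytic subunit, had means of 65.4 and 17.7 CPM (−1.88), with −0.11 in batch 1 and −3.85 in batch 2. Of 15 dense-core vesicle genes, all expressed, 2 were higher and 2 lower. *Ptprn*, a transmembrane protein of the vesicle, had the highest level at 114 TPM (−0.51), followed by *Rab2a*, a GTPase of vesicle maturation, at 109 TPM (−0.08). *Ptprn2*, the relative of *Ptprn*, was 1.42, turning to −0.20 in 1 of 11 alternatives, and *Baiap3*, a factor in vesicle trafficking, 1.81, which was 5.42 in batch 1 and 0.33 in batch 2. *Rab27b*, which docks vesicles for release, was −1.05, and *Eipr1*, which acts in vesicle maturation, −1.04, both negative in all 11 alternatives.

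Of 5 genes for copper and ascorbate, the cofactors of *Pam*, 1 was lower past the fold. This was *Slc31a1*, the copper importer, which was detected in 15 cells with a log2 ratio of −1.01 that was −0.40 with 1 cell left out. The copper chaperone *Atox1* (86.3 TPM) and the ascorbate transporter *Slc23a2* (10.1 TPM) stood at 0.52 and 0.15. The vesicular proton pump, which acidifies the vesicle for the convertases, held 15 expressed genes with 0 past the fold and a median of −0.02, the highest being *Atp6v0c* (1120.1 TPM, −0.02) and *Atp6v0b* (699 TPM, −0.58). Among the 8 expressed peptidases that inactivate peptides, 1 was higher and 2 lower, and *Thop1* (13.3 TPM, −0.19) and *Ide* (8.95 TPM, 0.20) were the most abundant. *Ece1* had a log2 ratio of −1.75, negative in all 11 alternatives, *Ece2* −1.38, turning to 0.20 in 1 of 10, and *Mme*, neprilysin, 1.21, which was 0.05 with 1 cell left out. Of the 8 neuropeptide precursors 2 were higher and 1 lower, and *Tac1* (1959 TPM, −0.56) and *Pdyn* (454 TPM, 0.00) were the most abundant. *Cartpt*, detected in 13 cells, had the highest ratio, 3.38. Of the 5 expressed microglia markers, *Csf1r* and *P2ry12* had the highest ratios (2.07 and 2.27, the same sign in both batches). The others, *C1qb*, *C1qc* and *C1qa*, stood at 0.21, 0.75 and 0.86. The 7 microglia markers summed to a median of 91.6 TPM in REG and 63.1 TPM in HFD cells. The part of microglial RNA in the ratios of these lists was not tested.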

How the data were processed

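Patch-sequenced NAcLat→VTA cells were analysed as 1 library per cell, 23 REG and 20 HFD, grouped by the treatment and batch labels. The authors prepared poly-A cDNA with SMART-Seq kits, quantified reads with kallisto on GRCm38 transcripts, excluded cells with few reads or genes, and deposited estimated counts without normalization and TPM scaled within each cell. Whether the quantification used strand is not given in the sources used here.

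CPM was the estimated count over the cell total, times 1000000. The diet ratio was the log2 of mean CPM in HFD over REG cells, with no pseudocount. A group with a sum of 0 was set to 3 counts over the group. Levels were compared between genes in TPM only. Intervals were exact (95%). Those of counts hold counting error alone, as PCR copies of a molecule were counted separately, and those of shares of cells take cells as independent draws, leaving out that cells can share a mouse. Thinning drew 150000 counts a cell with a fixed seed. Cells of unnamed mice are not replicates, so no test was run. The members, the lists and the rule for named genes were chosen with earlier results of these data known. The rule named all members, *Nts*, in each list the 2 genes highest in median TPM and those past the fold whose sign held in each batch and in each fit without 1 cell, the gene and the member most alike to each member, and *Lars2* and *Gm19220*. A gene named by this rule on 1 list and the gene most alike to *Chga* are not reported here. Transcript lengths and positions came from GENCODE M21 and promoters from RefSeq, both on the build the authors used. TMM and size factors came from edgeR 4.0.16 and DESeq2 1.42.0 on R 4.3.3, and the rest from scipy 1.17.1, numpy 2.4.6 and pandas 2.3.3 under Python 3.11.15, with figures from matplotlib 3.10.9.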

Additional observations from a re-analysis of the deposited data

Results flagged for a closer look

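Groups of 4 to 10 cells by diet and batch were searched for a cell that stands apart from its group in log2(TPM + 1), which could be done for HFD cells of batch 1 (5 cells) and REG cells of batch 2 (10 cells), 20 groups over the 10 members. In 4 of the 20 a cell stood apart by Dixon's 95% limit, which chance passes in about 1 in 20 groups, but in that of *Pcsk1* the other cells are all at 0, so any count would have done so and it says nothing beyond that count. *Cpe* was 9.07 TPM (32 counts) in HFD replicate 4 of batch 1 and between 134 and 176 TPM in the other 4 cells. That library had the highest microglia marker sum of all cells, 2216 TPM, and the lowest *Scg2* of the HFD cells, 6.88 TPM. *Cpe* was 1310 TPM (2429 counts) in REG replicate 16 of batch 2 and between 103 and 330 TPM in the other 9 cells. REG replicate 16 had the fewest genes detected of all cells, 6143. *Chgb* was 0 TPM in HFD replicate 1 of batch 1, the second shallowest library, and between 85.2 and 275 TPM in the other 4 cells. *Pcsk1* was 0.108 TPM in HFD replicate 4 of batch 1, from 1 count, and 0 in the other 4 cells.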

How the results depend on the processing

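The count of members past the fold, 0 as reported, was 0 with TPM, without *Lars2* and *Gm19220* in the totals, with mean log2(CPM + 1) and after thinning. It was 1 with TMM (*Chga*), 3 with DESeq2's size factors (*Cpe*, *Scg2*, *Chga*), 1 with medians over cells (*Scg3*), 2 with summed counts (*Cpe*, *Scg3*), 2 in batch 1 alone, 4 in batch 2 alone and 1 with the mean of the within-batch ratios (*Pcsk1*). With each cell left out in turn it lay between 0 and 1, *Pcsk1* being past the fold in 20 of 43 fits. The median of the 10 members, −0.01 as reported, was 0.27 with TMM, 0.66 with size factors, −0.069 without *Lars2* and *Gm19220*, −0.22 with mean log2(CPM + 1), 0.18 with summed counts, 0.11 after thinning, −0.17 in batch 1 and −0.13 as the mean of the within-batch ratios, and lay between −0.16 and 0.068 with 1 cell left out. The cause of these shifts was not tested. Detection, 90.9% of cell and member combinations, was 77.0% at a CPM above 15, 84.2% after thinning, 83.7% when thinned to 100000 counts outside *Lars2* and *Gm19220* (no cell was too shallow) and 78.4% at 10 or more counts. Past-fold genes on the 7 lists numbered 16 as reported, 10 with TPM and 14 to 23 in the other alternatives. Summed level, the *Pcsk2* and *Pcsk1* order and the median rho between members (0.04 to 0.11 with 1 cell left out) moved by less than their spread. No paired analysis was possible because nothing in the labels matches a REG cell or mouse to an HFD one.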
